A study of Rattus norvegicus with 8 samples.

Results

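Of the 7298 merged genomic regions at which the glucocorticoid receptor (GR) was mapped in rat hippocampus, 2450 (33.6%) were of moderate strength, stood apart from other merged regions and held GR peaks in both nonstressed control (NSC) and stressed rats. They were chosen from the deposited values by 3 criteria. The region overlapped at least 1 peak of each group by 1 bp or more, its maximum tag density in the merged list was under 30, and no other merged region lay within 10 kb. Both groups had a peak in 4302 regions, of which 3109 were under the limit of 30, and 659 of these were left out because of a neighbour. Because tag density, presence in both lists and isolation chose these regions, those values are given as a description and were not tested.

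GR is a nuclear receptor that moves into the nucleus when it binds corticosterone, the main glucocorticoid of the rat. There it contacts DNA at glucocorticoid response elements or their half-sites, mostly where chromatin is already open, and recruits cofactors that change transcription of nearby or distant genes. In the hippocampus, which is rich in both GR and the mineralocorticoid receptor, it takes part in feedback control of the stress axis and in memory. A whole-tissue GR profile is an average over neurons and glia, so a moderate tag density may come from many cells with little binding or from few cells with much of it, and these cannot be told apart here.

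The animals were male Sprague-Dawley rats, 9 weeks old, with both adrenal glands removed, so that circulating corticosterone came from outside. Both groups received corticosterone through a jugular cannula for 30 minutes. NSC rats stayed in the home cage during the infusion, whereas stressed rats were held in restrainers for the same 30 minutes, and whole hippocampus was collected from both at once afterwards. The comparison therefore asks whether restraint alters where GR binds when the hormone is supplied equally. Each group had 2 GR chromatin immunoprecipitation libraries and 2 input libraries, each from tissue pooled from 8 rats, and GR was recovered with a mixture of 3 antibody preparations. The deposited lists give 1 tag density per peak and group with the replicates combined. No value below therefore has a replicate error, and no test between groups could be made from these lists. The authors, who compared tag counts at the peaks using both replicates of each group, reported no peak that differed significantly between groups. Intervals below cover the number of regions only, and regions from the same libraries are not replicates. Sequencing depth could not be read from the lists. Positions are those of the rn5 assembly as deposited, and the genes and DNA sequence at them were not analysed here.

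"Moderate" described these regions within the merged list and not within all peaks called. In the NSC group their tag density ranged from 3.15 to 29.9 with a median of 17.3, which was the 84.5th percentile of all 19506 NSC peaks. In the stressed group it ranged from 4.06 to 30.0 with a median of 18.2, the 87.2nd percentile of all 23970 stressed peaks. The limit of 30 cut a continuous range. Just inside it lay chr1:22459092-22459758, with 24.9 in NSC and 30.0 in stressed rats, chr4:180486008-180486621, with 19.1 and 30.0, and chr2:63619827-63620701, with 24.6 and 30.0. Just outside it lay chr7:123845380-123846036, with 30.0 in NSC and 29.0 in stressed rats, chr1:258020439-258021182, with 28.3 and 30.0, and chr1:258062628-258063426, with 17.9 and 30.0. The isolation limit also passed through a continuous range. The pair chr7:139401507-139402099 and chr7:139412110-139412871, 10011 bp apart, were the closest neighbours that were kept, and chr1:79271040-79271745, with a gap of 9942 bp, was the nearest to the limit among those left out.

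The 2450 regions reached the merged list by different routes. Each peak list had its own lower limit, 11.5 for NSC peaks and 9.37 for stressed peaks, above which every peak was carried into the merged list. Both groups were above their own limit in 2075 regions (84.7%). In 347 regions (14.2%) only the stressed peak was, and in 28 (1.14%) only the NSC peak was. The merged value of 224 regions was under 11.5, so each of these was carried by its stressed peak, with an NSC tag density under 11.5 by construction. At the lower end, chr15:83394063-83394396 had 10.9 in NSC and 9.37 in stressed rats, chr2:172247440-172248154 had 8.87 and 9.37, and chr4:155357908-155358538 had 7.28 and 9.37. In 14 regions, the first of these among them, the NSC value was above the merged value because the NSC peak had not entered the merged list.

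**Figure D1:**
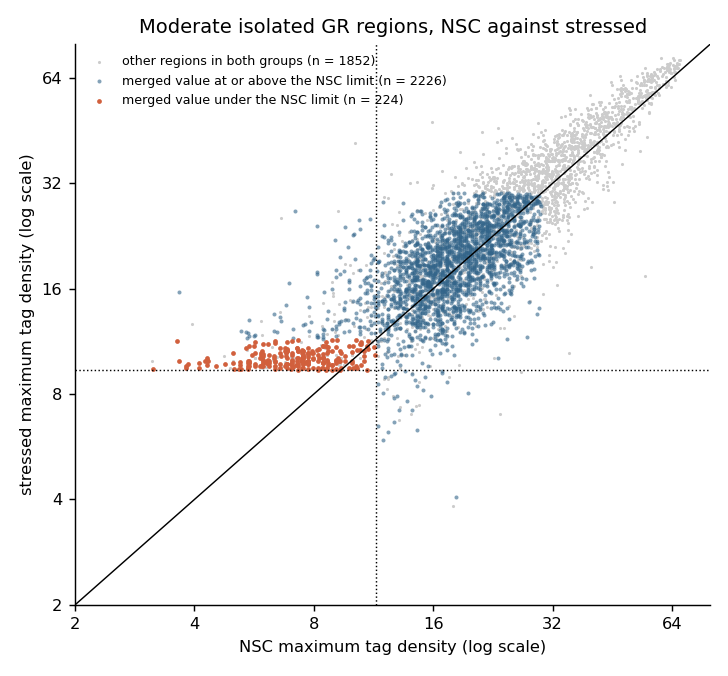
Maximum tag density in NSC (x axis) against stressed rats (y axis), both on log scales without unit, with 1 point per merged region that held peaks of both groups; dotted lines mark the lower limits of 11.5 (NSC) and 9.37 (stressed) and the diagonal marks equal values. The 2226 moderate isolated regions with a merged value at or above 11.5 spread around the diagonal, while the 224 under it form a flat band to its left.

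Tag density was on average slightly higher in the stressed group. On the log2 scale, the stressed value divided by the NSC value had a median of 0.099 (95% order-statistic interval over regions 0.082 to 0.12) with an SD of 0.39 across regions, a median ratio of 1.07-fold. The stressed value was the higher in 1505 regions (61.4%), against 64.8% of the 4302 merged regions with peaks of both groups. In 1284 regions (52.4%) the groups were within 1.2-fold of each other. In the 224 regions under 11.5, the median log2 ratio was 0.47, with 7.30 in NSC and 9.99 in stressed rats, and 93.8% were higher in the stressed group. Since these regions entered through their stressed peak, that direction was partly set by the lower limits and nothing is read from it. In the 2226 regions at or above 11.5 the median was 0.069 (0.052 to 0.086) with 58.2% higher in stressed rats, and it was 0.052 in the 2075 regions above the limit in both groups. Dividing each group by its median over all merged regions with both groups took the median of the 2450 regions from 0.099 to 0.043 and the share that was higher in stressed rats to 55.4%, against 57.9% of all merged regions with both. With the same scaling, the 2226 regions at or above 11.5 had a median of 0.013 (-0.0041 to 0.030), and 51.9% were higher in stressed rats.

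Few regions differed 2-fold, 57 in all (2.33%), against 1.95% of the merged regions with peaks of both groups. Stressed rats had at least 2-fold more tag density in 47 of the 2450 regions (1.92%), against 1.53% of all merged regions with peaks of both groups, and at least 2-fold less in 10 (0.408%), against 0.418%. The rule for choosing the regions used these values, so nothing is read from the closeness of these shares. Of the 47 regions, 44 had an NSC value under the NSC limit and 18 had a merged value under it. Of the 10 regions, 5 had a stressed value under the stressed limit. Where both groups were above their limits, 3 regions were 2-fold higher and 5 were 2-fold lower in stressed rats, and the criteria themselves confined the log2 ratio there to between -1.68 and 1.39. In the remaining 375 regions, where 1 group alone was above its limit, 44 were 2-fold higher and 5 were 2-fold lower.

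**Figure D2:**
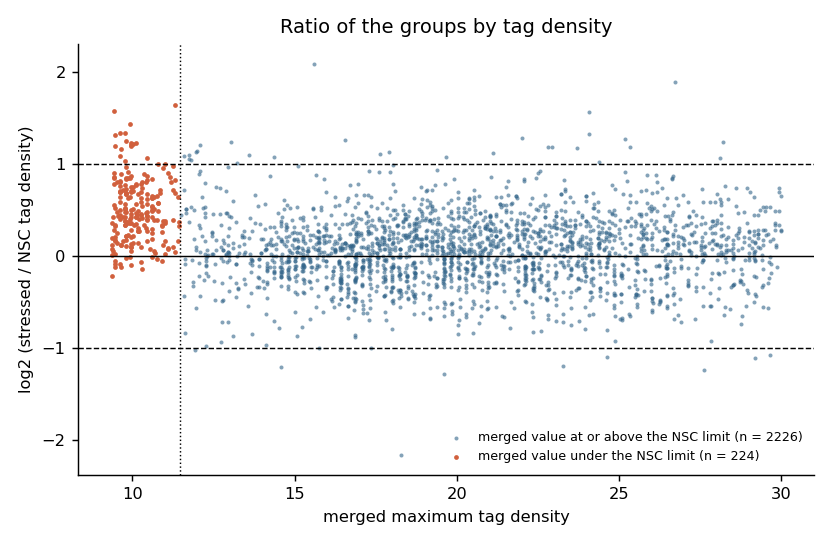
Log2 ratio of stressed to NSC maximum tag density (y axis) against the merged maximum tag density without unit (x axis) for each of the 2450 regions; dashed lines mark 2-fold and the dotted line the NSC limit of 11.5. Points under the limit lie mostly above 0 (median 0.47) and those at or above it lie around 0 (median 0.069).

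The region furthest above a ratio of 1 was chrX:98432368-98432975, with 3.65 in NSC and 15.6 in stressed rats (log2 ratio 2.10). In chr19:70142177-70142670 tag density was 7.19 in NSC and 26.7 in stressed rats, and in chr9:11430082-11430849 it was 8.14 and 24.1. In these 3 regions the NSC value was under the NSC limit of 11.5 and the stressed value was above 15. The other two of the highest 5 had lower values in both groups. At chr4:152503105-152503708 the values were 3.61 in NSC and 11.3 in stressed rats, and at chr11:11668151-11668613 they were 3.15 and 9.42. In the opposite direction, chr10:108591473-108592028 had 18.3 in NSC and 4.06 in stressed rats (log2 ratio -2.17). It was followed by chr19:71245483-71246153, with 19.6 in NSC and 8.03 in stressed rats, and chr7:107831784-107832387, with 27.6 and 11.6. At chr11:25758520-25759049 the values were 14.6 in NSC and 6.30 in stressed rats, and at chr1:271490151-271490778 they were 23.3 and 10.2. Among these 5, the stressed value stayed above its limit of 9.37 at the regions on chromosomes 7 and 1. The NSC and stressed peaks shared 22.5% to 51.0% of the longer peak in the highest 5 regions. In the lowest 5 they shared 43.8% to 82.6%, against a median of 83.8% over the 2450 regions.

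The breadth of the peaks and the peak caller's z-score moved with tag density at these sites. The z-score was the higher in the stressed group in 47 of the 47 regions that were 2-fold higher there, and the stressed peak was the longer in 45 of them, with median lengths of 525 bp in stressed and 270 bp in NSC rats. In all 10 regions that were 2-fold lower, both z-score and length were lower in the stressed group, with median lengths of 311.5 bp and 616 bp. At chr4:152503105-152503708 the stressed peak spanned 604 bp and the NSC peak 136 bp. At chr10:108591473-108592028 the NSC peak spanned 556 bp and the stressed peak 252 bp. Over all 2450 regions, the z-score was the higher in the stressed group in 61.2%. The peak with the higher tag density was the longer in 71.3% of the 2421 regions with a single peak of each group. All 3 measures come from the same libraries and are not independent of each other, so nothing is read from their agreement.

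At the other end were regions of nearly equal tag density. Both groups were at 20 or more in 548 regions. Closest to a ratio of 1 among them was chr8:105782567-105783176, where both values were 20.7 and the NSC and stressed peaks were 610 bp and 495 bp long. In chr1:225787725-225788302 both values were 20.1, and in chr7:63938910-63939492 both were 23.3, with peaks of 573 bp in NSC and 575 bp in stressed rats that shared 98.3% of the longer peak. The first of these was the only region of the 2450 with exactly the same value in both groups. Pearson's r between the groups was 0.707 for log2-transformed values over all 2450 regions, as a description over regions that share their libraries. Choosing regions within a narrow range of tag density bounds this value, and it was 0.554 in the 2226 regions at or above 11.5.

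The position of the peaks within a region was compared next. Because a peak of each group had to overlap the same region, some closeness was fixed by the choice of regions. A single peak of each group was present in 2421 of the 2450 regions (98.8%). In these, the centres of the NSC and stressed peaks were a median of 29.5 bp apart, with quartiles of 13.5 and 56 bp, and 71.5% were within 50 bp. The signed offset had a median of 1 bp, so neither group lay to a fixed side. The shared stretch covered a median of 83.9% of the longer peak, and at least 50% of it in 2250 regions. The median peak length was 528 bp in NSC and 529 bp in stressed rats, and the stressed peak was the longer in 1215 regions and the NSC peak in 1196. No region had the same start and end in both groups. The peak with the higher tag density was the longer in 71.3% of the 2421 regions.

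Position was less exact where tag density was low. Here all 2450 regions were used, with the peak of highest tag density where a group had more than 1. That was so in 20 of the 224 regions under 11.5. The median distance between centres was 20.3 bp in the 440 regions with a merged tag density of 25 to 30, and 24 bp in the 721 regions of 20 to 25. It was 31.5 bp in the 800 regions of 15 to 20, 47 bp in the 265 regions of 11.5 to 15, and 111.5 bp in the 224 regions under 11.5. Over the same ranges, from high to low, the shared part of the longer peak had medians of 90.3%, 87.1%, 81.7%, 72.4% and 56.1%. In the 886 isolated regions of 30 or more with peaks in both groups the corresponding medians were 19 bp and 93.6%. The 3 regions with the largest distance, which were singled out after their values were seen, were weak. At chr1:10706334-10707380 the centres were 644.5 bp apart, with 7.72 in NSC and 9.86 in stressed rats. The distance was 589 bp at chr14:52567666-52568232 and 510 bp at chr18:51850017-51850911.

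**Figure D3:**
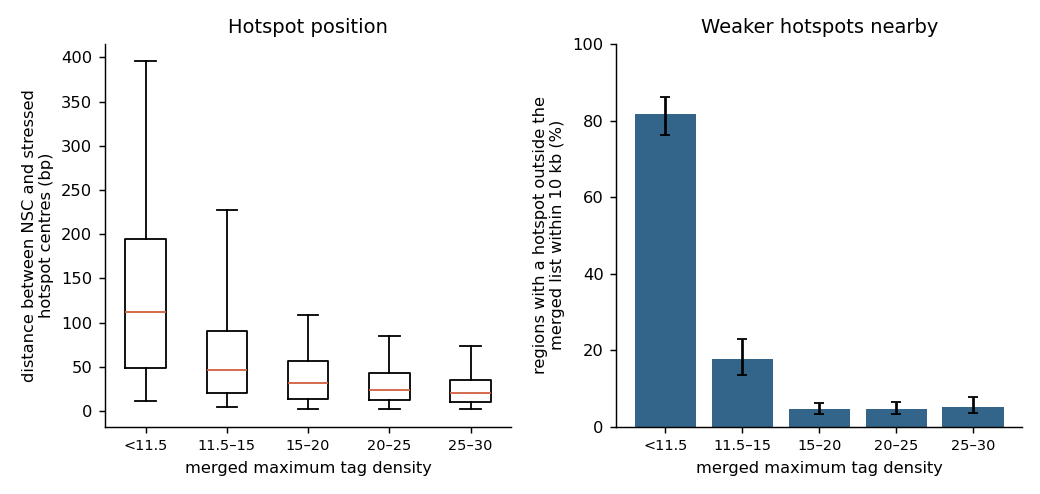
Left, distance in bp between the centres of the NSC and stressed peaks by merged tag density, as boxes from quartile to quartile with the median and whiskers at the 5th and 95th percentiles; right, the percentage of regions with a peak outside the merged list within 10 kb, with 95% Wilson intervals. The median distance goes from 111.5 bp under 11.5 to 20.3 bp at 25 to 30, and the percentage from 81.7% to 5.23%.

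Regions were mostly compact. The merged length had a median of 578 bp, with quartiles of 507 and 643 bp, against 748 bp in the isolated regions of 30 or more. The longest, chr8:25668036-25669720, was 1685 bp long and held 2 NSC peaks under a single stressed peak, with 9.74 in NSC and 13.0 in stressed rats. It was followed by chr1:262362375-262363740 with 1366 bp and chr15:106427119-106428413 with 1295 bp. The latter had peaks of almost equal length, 1254 bp in NSC and 1295 bp in stressed rats, with tag densities of 9.06 and 22.0. The shortest was chr18:11454630-11454748 with 119 bp, followed by chr3:134505759-134505904 with 146 bp and chr7:57993055-57993234 with 180 bp. Each of these 3 was as short as its stressed peak, since the NSC peaks of 387, 276 and 548 bp there had not entered the merged list.

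In 29 regions a group had more than 1 peak. In 22 of them there were 2 NSC peaks and in 1 there were 3, each with a single stressed peak, while 6 held 2 stressed peaks and a single NSC peak. The region with 3 NSC peaks was chr4:168991650-168992418, with 9.59 in NSC and 9.96 in stressed rats. The strongest of those with 2 stressed peaks was chr3:140017484-140018618, with 28.8 in NSC and 23.3 in stressed rats and an NSC peak of 996 bp. Of the 29 regions, 20 had a merged value under 11.5.

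The z-score, which the peak caller gives for enrichment over local background, did not follow tag density in the same way above and under 11.5. In the 2226 regions at or above 11.5, the z-score was higher where the merged tag density was higher, with Spearman's rho of 0.518 in NSC and 0.573 in stressed rats as a description across regions. The median z-score went from 11.8 in NSC and 12.0 in stressed rats at 11.5 to 15 up to 19.7 and 21.5 at 25 to 30. Under 11.5 the medians were far higher, at 38.3 in NSC and 52.9 in stressed rats. The z-score was 30 or more in both groups in 132 of these 224 regions (58.9%), against 9.81% at 11.5 to 15, 0.875% at 15 to 20, 1.25% at 20 to 25 and 3.64% at 25 to 30. In the 886 isolated regions of 30 or more it was 46.6%. The value of 30 was set as a dividing line after the z-scores were seen.

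**Figure D4:**
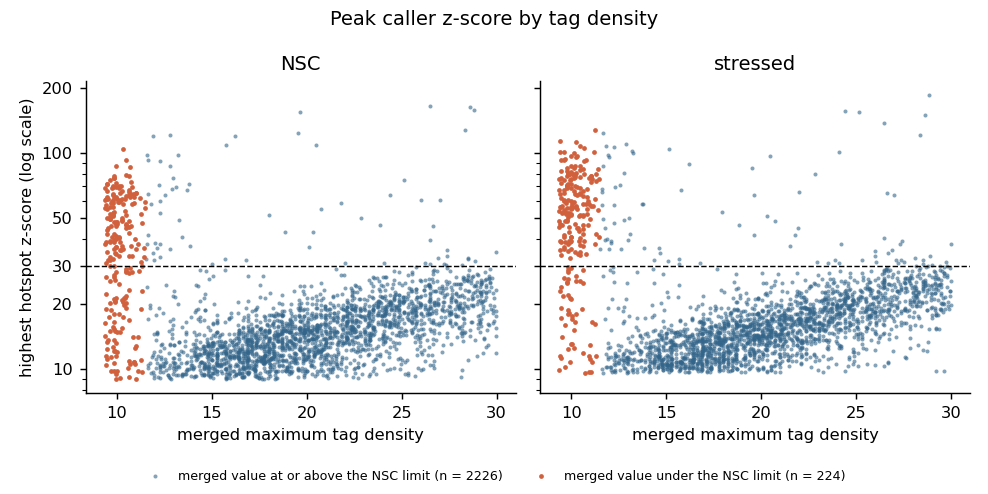
Highest z-score of the NSC (left) and stressed (right) peaks in each of the 2450 regions on a log scale (y axis) against the merged maximum tag density without unit (x axis); the dashed line marks a z-score of 30. The z-score climbs with tag density in the main body of points, and the regions under 11.5 form a column that reaches well above it, with medians of 38.3 and 52.9.

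In all, 190 regions (7.76%) had a z-score of 30 or more in both groups, and 132 of them lay under 11.5. Their tag density had a median of 8.22 in NSC and 10.3 in stressed rats. By comparison, 45.2% of all NSC peaks and 47.9% of all stressed peaks had a z-score of 30 or more. A further 25 of the 190 had a tag density of 20 or more, and the highest z-scores were among these. At chr6:24733641-24734234 the z-score was 165 in NSC and 137 in stressed rats, with tag densities of 24.2 and 26.5. At chr8:79223149-79223963 it was 164 and 150.4, with tag densities of 24.4 and 28.6, and at chr3:140017484-140018618 it was 159 and 185. In chr6:148112639-148113150 and chr14:94141529-94142275 the stressed z-score was much the higher, with 157 against 64.1 and 155 against 75.2. The tag densities there were 18.7 in NSC and 24.4 in stressed rats, and 15.8 and 25.1.

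Isolation held for the merged list but not for all peaks. The gap to the nearest merged region had a median of 104 kb, 1251 regions (51.1%) were further than 100 kb from it and 60 (2.45%) were further than 1000 kb. The most remote were chrX:134936651-134937335, at 4137 kb, with 19.6 in NSC and 23.5 in stressed rats, chrX:79830705-79831268, at 3380 kb, with 6.13 and 11.2, and chr8:7786500-7787185, at 2485 kb, with 14.1 and 21.9. Peaks that were left out of the merged list did lie near some regions. They are called weaker here only because their tag density was under the lower limit of their group. They were not compared with the tag density of the region itself. Over all peaks left out, the median z-score was 33.0 in NSC and 32.7 in stressed rats. It was 14.9 and 15.9 in the 2450 regions. Within 10 kb such a peak was present at 323 of the 2450 regions (13.2%, 95% Wilson interval 11.9% to 14.6%), from NSC rats at 240 and from stressed rats at 251. The share was 3.61% (2.57% to 5.05%) in the 886 isolated regions of 30 or more. Where only NSC rats had a peak it was 7.35% of 980 isolated regions, and where only stressed rats did it was 29.4% of 1429. The lowest merged value was 11.6 in the former, whereas 534 of the latter were under 11.5.

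The weakest regions had such peaks most often. A peak left out of the merged list lay within 10 kb of 183 of the 224 regions under 11.5 (81.7%, 95% Wilson interval 76.1% to 86.2%). The same held for 140 of the 2226 regions at or above 11.5 (6.29%, 5.35% to 7.38%). NSC peaks were left out up to the limit of 11.5, so at the 224 regions a counted peak could be denser than the region. Both groups had such a peak at 119 of the 224 regions. The share was already 17.7% at 11.5 to 15 and between 4.58% and 5.23% in the ranges above. Isolated regions with a stressed peak only showed the same split, with 60.9% of the 534 under 11.5 and 10.6% of the 895 at or above it. Among the regions at or above 11.5, a weaker peak lay within 10 kb of 24 of the 58 with a z-score of 30 or more in both groups and of 5.35% of the other 2168. The regions under 11.5 were also the furthest from other merged regions, with a median gap of 277 kb, against 87.6 kb at 25 to 30. At 41 of the 224 regions no peak of either group left out of the merged list lay within 10 kb.

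The regions were spread over all 20 autosomes and the X chromosome. The most were on chromosome 1 (281), chromosome 2 (189) and chromosome 5 (162), and their highest tag densities were at the first and the third of the regions named above as just inside the limit and at chr5:67108427-67109177, with 29.2 in NSC and 25.1 in stressed rats. They made up between 24.8% of the merged regions on chromosome 19 and 39.2% on the X chromosome. The median log2 ratio was above 0 on 20 of the 21 chromosomes and -0.013 on chromosome 19. The chromosomes share the same libraries, the values were not scaled and the regions under 11.5 were included, so nothing is read from that count. Chromosome 19 held 58 regions, 2 of them 2-fold higher and 1 of them 2-fold lower in stressed rats. With 53 to 281 regions each, the chromosomes had SDs of the log2 ratio between 0.34 and 0.54 across regions. Differences between chromosomes were not tested.

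Weak regions made up a large share of those on the X chromosome. Of its 58 regions, 23 (39.7%) had a merged value under 11.5, whereas the share on the autosomes ran from 0% on chromosome 20 to 13.8% on chromosome 2. On chromosome 10 it was 1.92%, or 3 of 156 regions. The z-score was 30 or more in both groups in 14 of the 58 regions on the X chromosome (24.1%, 95% Wilson interval 15.0% to 36.5%). The median log2 ratio on the X chromosome was 0.22 over all 58 regions and 0.017 over the 35 at or above 11.5. The X chromosome held 7.23% of all NSC peaks, 7.47% of all stressed peaks, 2.03% of all merged regions and 2.37% of the moderate isolated regions. Without it, a peak left out of the merged list lay within 10 kb of 80.6% of the 201 regions under 11.5.

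**Figure D5:**
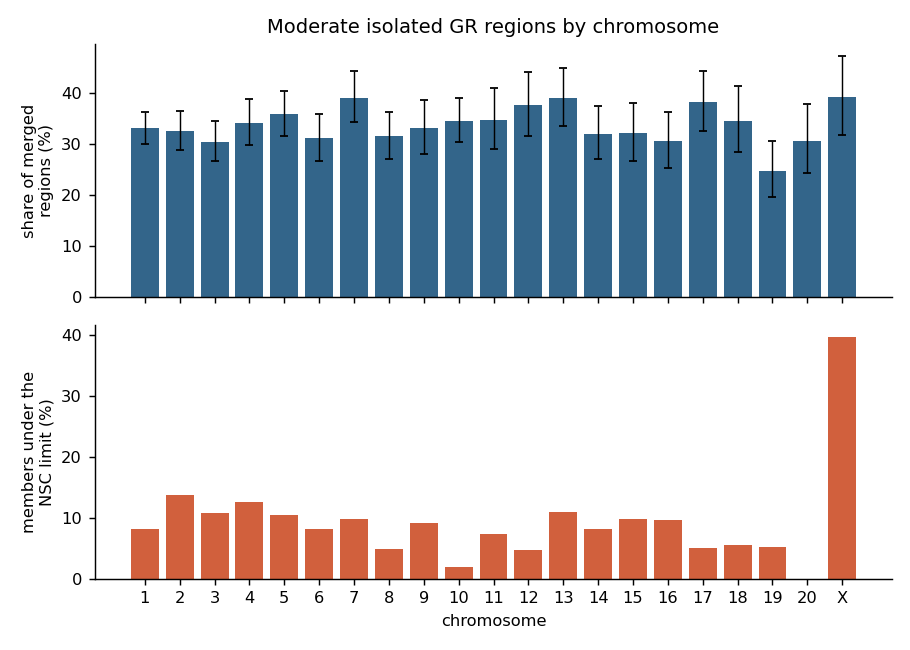
Top, the moderate isolated regions as a percentage of all merged regions on each chromosome, with 95% Wilson intervals; bottom, the percentage of the moderate isolated regions on each chromosome with a merged tag density under the NSC limit of 11.5. The upper share runs from 24.8% to 39.2%, and in the lower panel the X chromosome reaches 39.7% while no autosome exceeds 13.8%.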

How the data were processed

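GR ChIP-seq peaks of whole hippocampus came from 2 NSC and 2 stressed libraries with matched inputs. The authors used Bowtie2 (version not given in the sources used here) for alignment to rn5, extended tags and dropped duplicates. They normalized to input, masked simple repeats and kept Hotspot peaks found in both replicates. The maximum tag density they deposited is a coverage signal whose exact scale is not stated. The z-score is the authors' peak caller score, and their deposited p-value never exceeded 2.01e-19 for NSC peaks and 4.75e-22 for stressed peaks. The merged list joins the strongest peaks.

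Peaks were matched to merged regions by 1 bp of overlap, and a group's value was its highest peak. Gaps were measured edge to edge. Lower limits were the lowest values above which every peak was in the merged list, read after the data were seen, as were the density ranges and the z-score line of 30. Shares have 95% Wilson intervals. The members and lists were chosen with earlier results of these data known. Regions named were the extremes of tag density, ratio, length, gap, z-score and peak number, the highest on the chromosomes with most members and those of equal value; the largest centre distances and those at the isolation limit were added after their values were seen. Alternatives were other limits, gaps, overlaps, scalings and group values. The matching was checked on simulated lists. Python 3.11.15, numpy 2.4.6, scipy 1.17.1, pandas 2.3.3 and matplotlib 3.10.9 were used. Inputs, genes and sequences were not analysed here, since the reference at hand is of another build than rn5.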

Additional observations from a re-analysis of the deposited data

How the results depend on the processing

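No paired analysis was possible because the replicates of a group are combined in 1 value, and for the same reason no replicate could be left out. The median log2 ratio stayed above 0 in each of the 11 alternatives that gave it, which share regions and values and are not independent. With an upper limit of 20, there were 1289 regions, 5 of them 2-fold lower in stressed rats, and Pearson's r was 0.615. With a limit of 40, r was 0.779. Spearman's rho was 0.681. Requiring 50% mutual overlap left 2259 regions, 33 of them 2-fold apart (29 higher and 4 lower), against 57 of the 2450. Requiring the top 20% of both lists left 1624 regions, with a median log2 ratio of 0.023, 53.0% higher in stressed rats and 2 regions 2-fold apart, 0 higher and 2 lower. Dividing each group by its median gave 0.043 and 55.4% higher. At or above the NSC limit, chosen after seeing the data, the median was 0.069, 58.2% were higher, 29 were 2-fold higher and r was 0.554. With scaling as well, the median was 0.013 and 51.9% were higher. Above both limits, also chosen after seeing the data, the values were 0.052, 56.5%, 8 regions 2-fold apart (3 higher and 5 lower) and r of 0.552. The top 20% setting and the settings chosen after seeing the data cut regions with low values in a group by construction. The top 20% began at 14.8 in NSC and 12.4 in stressed rats, with all values under 30. That left less room for a 2-fold higher than for a 2-fold lower stressed value, so nothing is read from the 0 and 2. A peak left out of the merged list lay nearby at 10.2% of regions within 5 kb and 27.7% within 50 kb. A gap of 5 kb gave 2667 regions, with a median log2 ratio of 0.094 and 59 regions 2-fold apart. A gap of 50 kb gave 1696 regions, with a median of 0.11 and 46 regions 2-fold apart. Group means in place of the highest peak gave a median of 0.099 and 58 regions 2-fold apart. Alternatives for motifs and gene positions were not run, since they need rn5 sequence and annotation. The unknown depth limits every single ratio.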

Other observations

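Tag density took few distinct values. The 2450 NSC values fell on 559 distinct numbers and the 2450 stressed values on 556, and over the full lists there were 1430 distinct values among 19506 NSC peaks and 1655 among 23970 stressed peaks. A ratio between groups at weak regions therefore moves in steps, and its counting error is not known from the lists.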
